A study of Mus musculus with 9 samples.

Results

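The immediate early genes are described here in the hippocampus of mice that lack or overexpress IF1, the inhibitor protein of the mitochondrial ATP synthase. They are a list of 10 genes taken by name, Fos, Fosb, Junb, Egr1, Egr2, Egr3, Arc, Npas4, Nr4a1 and Dusp1, out of 31093 gene names on the array. Each of the 10 was read by 1 probe. The probes of 9 of them passed the filter on dim spots, as did 21906 of all gene names, and Egr3 did not pass.

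Hippocampal RNA of 9 male mice of 9 months on the C57BL/6J background was hybridised to one-colour Agilent arrays, 1 array per mouse, with 3 mice in each of 3 genotypes. IF1-KO mice carried floxed Atp5if1 alleles recombined by the T29-1 Camk2a-cre transgene, which acts in forebrain excitatory neurons, and the floxed line descended from a C57BL/6N knockout-first allele. IF1-TG mice carried a tetO transgene of human ATPIF1 driven by the Camk2a tetracycline transactivator, also a neuronal driver. CRL mice were the controls, and the transgenes that these particular animals carried are not given in the sources used here. The labels give no treatment, no behavioural task before tissue collection and no hour of collection. Values are log2 signals relative to the 75th percentile of all gene probes on the same array, so that 0 is a fairly bright probe and a difference of 1 is a 2-fold difference. Whole tissue was hybridised, so fewer cells that express a gene and less RNA per cell cannot be told apart.

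Immediate early genes are transcribed within minutes of a stimulus without the need for new protein. In hippocampal neurons calcium entry and growth factor signalling activate kinases that phosphorylate the transcription factors CREB and SRF with its partners, which already sit at these promoters. The products are transcription factors that start later gene programmes, proteins that act at synapses, and phosphatases that end the signal, and their RNAs decay quickly, so their level follows the recent activity of the tissue.

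The letters that CREB recognises were present before at least 1 start of each member whose promoter could be read. RefSeq promoters (GRCm38.p6) matched 7 of the 10 members, Fos, Fosb, Junb, Egr2, Npas4, Nr4a1 and Dusp1, and were not found here for Egr1, Egr3 and Arc. The core of the cyclic AMP response element, TGACG or its reverse complement CGTCA, lay in the 250 bases before 9 of the 11 starts listed for these genes, while 17.8% of 32851 promoters of all genes held it in the same window. Of the 5 starts of Egr2, whose windows overlap in part, 2 lacked it, and the 6 other genes have 1 start each. The 6 members with a single listed start are shown from 250 bases before it, 5′ to 3′ on the gene's strand, with the cores in capitals, because these are the letters that the genes share.
Fos, chr12:85473640-85473889, plus strand: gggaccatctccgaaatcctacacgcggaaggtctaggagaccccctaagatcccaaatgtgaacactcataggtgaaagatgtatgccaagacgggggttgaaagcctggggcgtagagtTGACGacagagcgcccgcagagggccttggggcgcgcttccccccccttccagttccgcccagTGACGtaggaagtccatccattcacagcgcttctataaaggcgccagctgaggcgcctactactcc
Fosb, chr7:19310046-19310295, minus strand: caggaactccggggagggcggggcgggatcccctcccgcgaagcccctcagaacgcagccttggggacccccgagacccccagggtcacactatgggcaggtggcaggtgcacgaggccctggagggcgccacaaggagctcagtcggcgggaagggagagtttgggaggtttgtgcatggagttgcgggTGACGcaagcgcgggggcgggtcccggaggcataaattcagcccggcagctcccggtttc
Junb, chr8:84978749-84978998, minus strand: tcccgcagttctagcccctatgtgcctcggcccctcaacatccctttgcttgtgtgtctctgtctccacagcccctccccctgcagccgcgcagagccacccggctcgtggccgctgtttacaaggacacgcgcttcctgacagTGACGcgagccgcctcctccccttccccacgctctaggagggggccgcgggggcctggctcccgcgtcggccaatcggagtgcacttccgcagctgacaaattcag
Npas4, chr19:4989972-4990221, minus strand: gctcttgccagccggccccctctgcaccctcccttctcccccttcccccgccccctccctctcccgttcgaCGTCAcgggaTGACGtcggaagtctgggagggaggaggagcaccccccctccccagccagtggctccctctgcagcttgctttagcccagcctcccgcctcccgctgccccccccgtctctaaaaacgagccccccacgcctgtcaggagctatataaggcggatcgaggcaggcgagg
Nr4a1, chr15:101266596-101266845, plus strand: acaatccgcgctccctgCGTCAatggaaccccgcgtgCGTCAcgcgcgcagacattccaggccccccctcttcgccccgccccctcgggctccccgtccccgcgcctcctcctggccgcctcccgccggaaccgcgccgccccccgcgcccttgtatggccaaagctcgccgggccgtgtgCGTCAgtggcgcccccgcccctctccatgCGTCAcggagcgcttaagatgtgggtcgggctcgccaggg
Dusp1, chr17:26508473-26508722, minus strand: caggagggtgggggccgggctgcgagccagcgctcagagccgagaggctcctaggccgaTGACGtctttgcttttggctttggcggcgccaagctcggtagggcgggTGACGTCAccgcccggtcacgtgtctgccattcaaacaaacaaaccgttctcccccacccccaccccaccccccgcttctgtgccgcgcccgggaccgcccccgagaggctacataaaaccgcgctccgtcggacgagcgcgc

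Fos held cores 129 to 125 and 66 to 62 bases before its start, and the latter lies upstream of a TATAAA box at 33 to 28 bases. Nr4a1 held 4 cores, the most of the 6 genes. Dusp1 was the only one of the 7 genes with the full palindrome TGACGTCA, 143 to 136 bases before the start, where cores on the 2 strands overlap; 1.55% of all promoters held it. The CArG box, the site of SRF, was found in Egr2 alone, at 4 of its 5 listed starts, against 1.47% of all promoters. The Egr site GCGGGGGCG was found in Fosb and Nr4a1, against 2.57% of all promoters, and the AP-1 site TGANTCA in none of the 7 genes, against 6.75%. All motifs were searched on both strands. A match describes letters only, and sites that lie further upstream than 250 bases were not searched.

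Before the members are described, the arrays themselves require a remark. Atpif1, the array's name for the targeted gene Atp5if1, was at 5.20 and 5.53 on IF1-KO replicates 2 and 3, below the 6.19 to 6.34 of the CRL arrays. Its level of 6.44 on the array labelled IF1-KO replicate 1 lay inside the 6.39 to 6.51 of IF1-TG, and the targeted gene did not bear out that label. The main values that rest on this array are given with and without it. The mouse probe was not made for the human transgene. Markers of the dentate gyrus (5 of 5) and of the CA1 (5 of 5) and CA3 (4 of 5) fields passed the filter. The mean of the dentate markers, each centred over the 9 arrays, was -0.88 on IF1-KO replicate 2 and -0.13 to 0.38 elsewhere. The mean of the CA3 markers was -0.41 on that array and -0.15 to 0.24 elsewhere. Its CA1 mean of 0.07 lay inside the -0.41 to 0.21 of the other arrays. Choroid plexus markers differed between mice. The mean of 7 of 7 such markers, each centred over the 9 arrays, was at 2.13 on IF1-KO replicate 3, 2.31 on CRL replicate 2 and 3.46 on IF1-TG replicate 1, against -2.19 to -0.66 on the other 6 arrays. The arrays came from 3 slides. Slide 3 carried IF1-KO replicates 2 and 3 with CRL replicate 3, slide 1 carried the first 2 IF1-TG replicates, and the remaining 4 arrays were on slide 2. The share of probes well above background was 66.7% to 69.5% on the IF1-TG arrays and 71.0% to 74.9% on the other 6 arrays.

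Among the AP-1 subunits, which pair to form the transcription factor AP-1, Fos varied most between mice. Fos was at -0.94, 0.03 and -2.71 on IF1-KO replicates 1 to 3, at -0.99, 0.29 and -2.48 on CRL, and at -3.52, -1.03 and -1.96 on IF1-TG. The 9 mice spanned 14.0-fold, and mice of a single genotype spanned 6.68-fold in IF1-KO, 6.78-fold in CRL and 5.63-fold in IF1-TG. The 3 genotypes overlapped, with a high and a low mouse in each.

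Fosb, whose spliced form ΔFosB accumulates with repeated activity, was at -0.75, 0.05 and -1.37 in IF1-KO, -0.87, -0.06 and -1.15 in CRL, and -1.85, -0.84 and -1.07 in IF1-TG. The probe does not report the splice form, and its span over the 9 mice was 3.72-fold. Junb, a partner of the Fos proteins, was at -3.54, -2.68 and -3.92 in IF1-KO, -4.04, -3.03 and -4.35 in CRL, and -4.45, -3.73 and -3.80 in IF1-TG. As for Fos, the second replicate was the highest mouse of each genotype for both genes, and IF1-TG replicate 1 was the lowest of all 9.

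The Egr genes encode zinc finger transcription factors, of which Egr1 (also named Zif268) is much used to map active hippocampal neurons. Egr1 was at 2.31, 2.89 and 1.94 in IF1-KO, 2.61, 3.12 and 2.19 in CRL, and 1.85, 2.54 and 2.14 in IF1-TG, a span of 2.41-fold and the narrowest of the 9 genes. Egr2 was at -2.33, -1.32 and -4.53 in IF1-KO, -2.14, -0.60 and -4.08 in CRL, and -5.70, -2.44 and -3.43 in IF1-TG. Its span of 34.3-fold over the 9 mice was the widest of the 9 genes, and each genotype alone spanned at least 9.24-fold. Egr3 was dim, between -8.00 and -5.90, and well above background on 2 of the 3 IF1-KO arrays, 2 of the 3 CRL arrays and 0 of the 3 IF1-TG arrays. Its mean was -6.29 in IF1-KO, -6.51 in CRL and -6.88 in IF1-TG, and the lowest signals well above background on the IF1-TG arrays were too high to set a bound on a fold difference.

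Arc encodes a synaptic protein that acts in the endocytosis of AMPA receptors. Arc was at 4.08, 4.51 and 3.17 in IF1-KO, 4.04, 4.75 and 2.92 in CRL, and 2.70, 4.26 and 3.63 in IF1-TG, a span of 4.16-fold. Npas4, a transcription factor induced by calcium entry in neurons, was at 1.02, 2.17 and 0.42 in IF1-KO, 0.62, 2.01 and 0.83 in CRL, and 0.47, 0.76 and 0.35 in IF1-TG. Its 3 IF1-TG mice lay close together, within 1.34-fold, whereas the IF1-KO mice spanned 3.37-fold and the CRL mice 2.63-fold. The groups nevertheless overlapped, since IF1-KO replicate 3 lay between the IF1-TG mice.

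Nr4a1, an orphan nuclear receptor also named Nur77, was at 4.07, 4.51 and 3.33 in IF1-KO, 3.87, 4.59 and 3.04 in CRL, and 2.92, 4.09 and 3.66 in IF1-TG. Dusp1, the phosphatase that inactivates MAP kinases, was at 0.01, 0.28 and -1.05 in IF1-KO, -0.11, 0.71 and -0.84 in CRL, and -1.24, 0.07 and -0.76 in IF1-TG. Both spanned more than 3-fold over the 9 mice, 3.19-fold for Nr4a1 and 3.88-fold for Dusp1, and both had the same order of mice within each genotype as Fos.

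**Figure D1:**
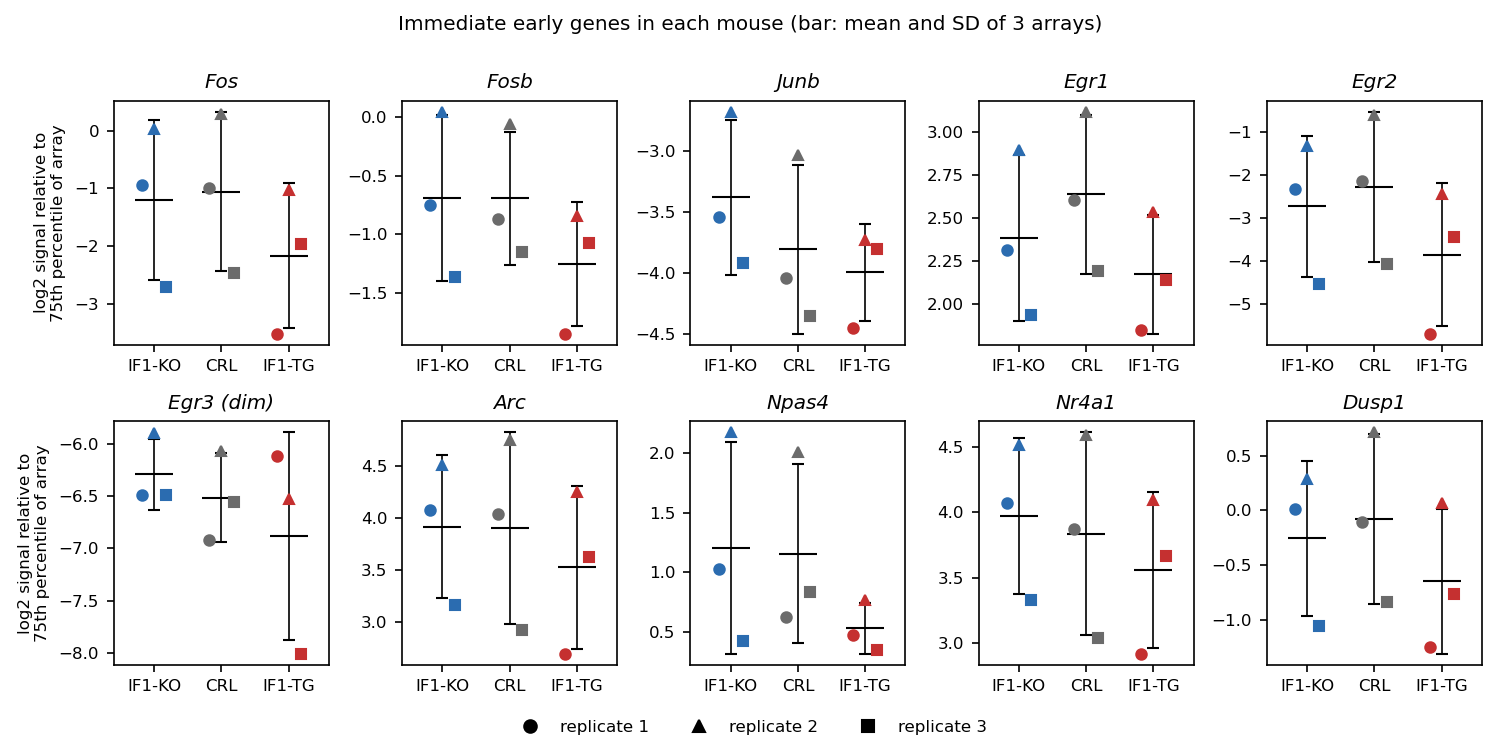
Log2 signal against the 75th percentile of its array (vertical axes, a scale for each gene) for the 10 immediate early genes by genotype (horizontal); each symbol is 1 mouse, and the bar and whiskers are the mean and SD of 3 mice. The triangle of replicate 2 is the highest in each genotype for 9 genes, and the genotypes overlap throughout; Egr3 is dim.

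The levels of the 9 genes varied together from mouse to mouse. IF1-KO replicate 2 was the highest and IF1-KO replicate 3 the lowest IF1-KO mouse for 9 of 9 genes. CRL replicate 2 was the highest CRL mouse for 9 of 9, and CRL replicate 3 the lowest for 8 of 9, the exception being Npas4. IF1-TG replicate 2 was the highest IF1-TG mouse for 9 of 9 and IF1-TG replicate 1 the lowest for 8 of 9, again with Npas4 as the exception. Over all 9 mice, IF1-TG replicate 1 was the lowest for 8 genes, CRL replicate 2 the highest for 6 and IF1-KO replicate 2 the highest for 3.

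The mean of the 9 genes was at 0.26, 0.99 and -0.70 in IF1-KO, at 0.16, 1.14 and -0.61 in CRL, and at -1.15, 0.23 and -0.31 in IF1-TG. The genotype means were 0.18 ± 0.85 (SD, n = 3) in IF1-KO, 0.23 ± 0.87 in CRL and -0.41 ± 0.70 in IF1-TG, and the IF1-KO mean was 0.14 ± 1.19 (SD, n = 2) when the mouse with undiminished Atpif1 was left out. Mice of the same genotype thus differed by up to 3.22-fold, 3.35-fold and 2.62-fold. The spread was present within each slide, at 2.62-fold between the 2 arrays of slide 1, 2.73-fold over the 4 of slide 2 and 3.22-fold over the 3 of slide 3. The choroid plexus markers did not follow it on every array, since they were high on IF1-TG replicate 1 and IF1-KO replicate 3, where the members were low, and on CRL replicate 2, where the members were highest. The median correlation of these 7 markers with the mean of the members was -0.31 over the 9 arrays, and their part in the levels of the members was not tested.

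Between pairs of members, Pearson's r over the 9 arrays lay between 0.72 and 0.995 with a median of 0.92 over 36 pairs, and Spearman's rho between 0.65 and 1 with a median of 0.92. These are descriptions over n = 9 arrays, on which all genes share the same RNA, scaling factor and slide. With the genotype means subtracted, the median r was 0.95. Fos was closest to the other 8 genes, at r = 0.99 with their mean, and Fosb, Egr1, Egr2, Arc, Nr4a1 and Dusp1 were at 0.955 or above. Junb, at 0.88, and Npas4, at 0.82, were the least closely tied.

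**Figure D2:**
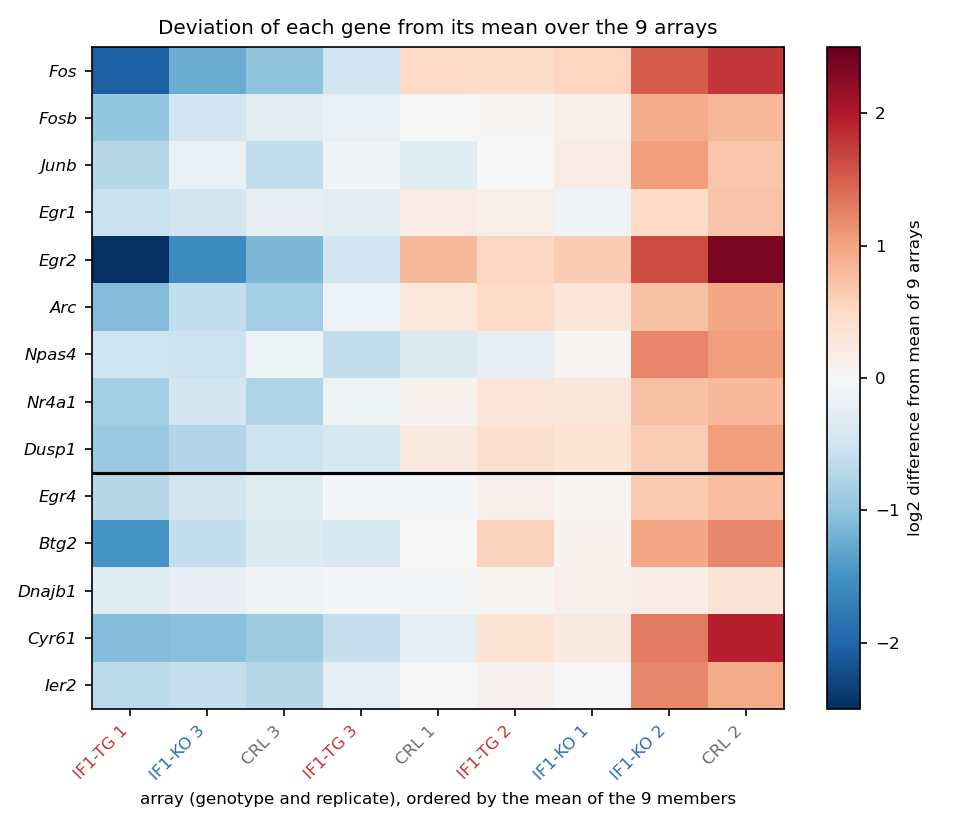
Log2 difference of each gene (rows) from its mean over the 9 arrays (columns, ordered by the mean of the 9 members, with IF1-KO in blue, CRL in grey and IF1-TG in red). The 9 members above the line run from low on IF1-TG 1 to high on CRL 2, with Egr2 over the widest range, and the 5 named genes below the line are those most like them.

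The spread of these genes between mice of the same genotype was wider than that of most genes on the arrays. The SD within genotypes, pooled over the 3 genotypes, had a median of 0.68 over the 9 members, from 0.43 for Egr1 to 1.69 for Egr2, and a median of 0.24 over 21659 genes. Of the 9 members, 6 lay above 0.66, the 95th percentile of all genes. Counted from the widest, Egr2 ranked 35 and Fos 78.

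**Figure D3:**
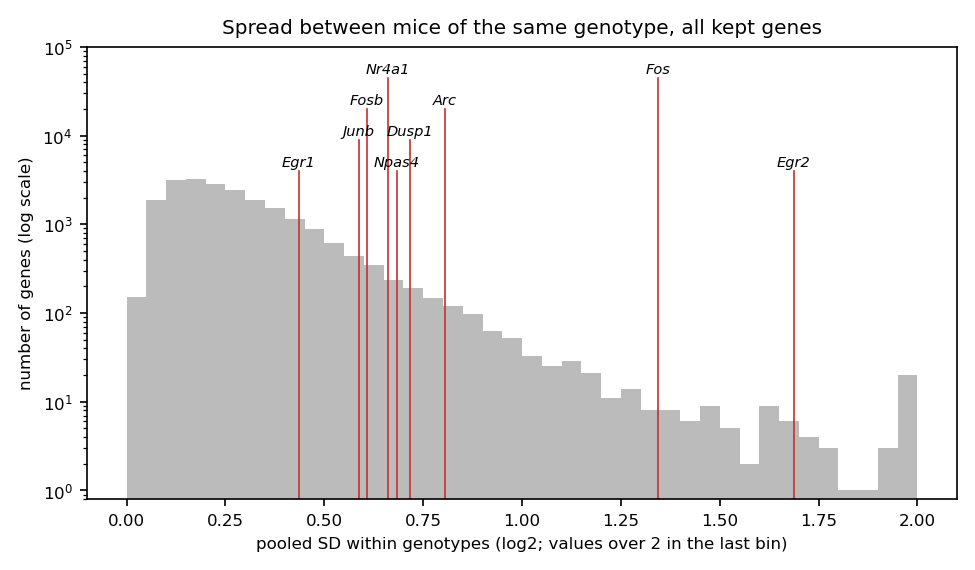
Number of genes (vertical, log scale) by their pooled SD of log2 signal within genotypes (horizontal), with the 9 members as red lines. Egr1 lies at 0.43 and Egr2 at 1.69, while the median of all genes is 0.24.

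The noise of single spots could be measured for Fos, since its probe (mm9, chr12:86817900-86817959) was printed as 10 spots on each array. The SD between spots of an array ranged from 0.05 to 0.50 with a median of 0.20, and the standard error of an array's mean from 0.02 to 0.16. The SD between mice within genotypes was 1.34. Spots of an array share 1 RNA, labelling and hybridisation, so their spread leaves out the noise of those steps, which was not measured. Spots agreed best on slide 3, with SDs from 0.05 to 0.07 for Fos, and the median spot SD of 318 probes printed 10 times was likewise lowest there, at 0.04 to 0.07 against 0.19 to 0.27 on the other slides. The low Fos levels on IF1-KO replicate 3 and CRL replicate 3 and the high level on IF1-KO replicate 2 were all measured on slide 3. The low mean of IF1-TG replicate 1 had the widest spot SD, 0.50, and was still more than 1 log2 unit below the next IF1-TG mouse.

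**Figure D4:**
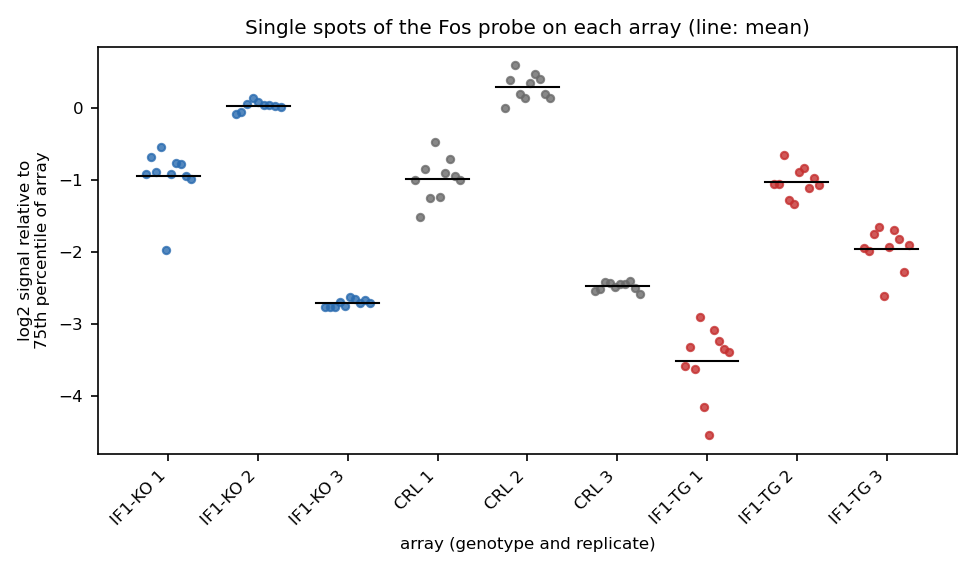
Log2 signal against the array's 75th percentile (vertical) of the single spots of the Fos probe on each of the 9 arrays (horizontal), with the mean as a line. Spots of an array lie together, with SDs from 0.05 to 0.50, while the means of mice of a genotype differ by 2.49 to 2.76.

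Whether IF1 dose altered these genes was asked by comparing the genotypes in limma, by the fold change of 1.5 and the P value of 0.05 that the study's methods name. The methods name no adjustment, and the P value was taken here before adjustment. No member was different in any of the 3 comparisons, which does not show that the genotypes were alike. In IF1-TG against IF1-KO, 0 of 9 members passed both thresholds, 0 of 9 had an unadjusted P below 0.05, and 0 of 9 had arrays that did not overlap, beside 3.71%, 6.91% and 13.4% of all genes. In IF1-TG against CRL the counts were again 0 of 9 by each rule, beside 4.31%, 8.07% and 11.9% of all genes. In IF1-KO against CRL they were 0 of 9 by each rule, beside 1.02%, 2.57% and 7.90% of all genes. At a Benjamini-Hochberg adjusted P below 0.05, 0 of 21906 genes, each by its brightest probe, passed in each comparison. Over all kept probes 3 passed in IF1-TG against IF1-KO, 1 in IF1-TG against CRL and 0 in IF1-KO against CRL, and none of them reads a member.

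Between IF1-TG and IF1-KO, 9 of 9 members had a lower mean in IF1-TG, with a median difference of -0.56, whereas the median of all genes was 0.01. The estimates ran from -0.21 for Egr1 to -1.13 for Egr2 (SE 1.16). The smallest unadjusted P was 0.174, for Junb, with a limma adjusted P of 0.746. Since the 9 genes moved together from mouse to mouse, they do not count as 9 separate observations. IF1-TG replicate 1 was below all IF1-KO mice for 8 of the 9 genes, the exception being Npas4, and for those 8 IF1-TG replicates 2 and 3 lay among the IF1-KO mice. The median was -0.21 with IF1-TG replicate 1 left out, -0.19 with IF1-KO replicate 2 left out, -0.88 with IF1-KO replicate 3 left out, -0.76 with IF1-TG replicate 2 left out, and -0.60 when the IF1-KO array with undiminished Atpif1 was left out, where the estimates ran from -0.24 for Egr1 to -0.93 for Egr2. The part of the lower share of probes above background on the IF1-TG arrays was not tested.

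Between IF1-TG and CRL, which shares the IF1-TG arrays with the comparison above, 9 of 9 members were again lower in IF1-TG on average, with a median of -0.56 against 0.00 for all genes. The estimates ran from -0.19 for Junb to -1.58 for Egr2, and for Fos the difference was -1.11 (SE 0.93, 95% interval -3.22 to 1.00). The smallest unadjusted P was 0.174, for Egr1, with a limma adjusted P of 0.707. Without IF1-TG replicate 1 the median was -0.27, without CRL replicate 2 it was -0.20, without CRL replicate 3 it was -0.79 and without IF1-TG replicate 2 it was -0.75.

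Between IF1-KO and CRL, 5 members were higher and 4 lower in IF1-KO, with a median of 0.00. The estimates ran from -0.45 for Egr2 to 0.42 for Junb, and the limma adjusted P was 1.00 for each of the 9 genes. It was -0.06 when the IF1-KO array with undiminished Atpif1 was left out, with estimates from -0.66 for Egr2 to 0.50 for Junb. Leaving out other single IF1-KO or CRL mice carried it from -0.48 to 0.44.

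The precision differed between the genes. The 95% interval of a genotype difference reached 0.71 to either side for Egr1, a 1.64-fold difference, between 0.94 and 1.28 for Junb, Fosb, Nr4a1, Npas4, Dusp1 and Arc, 2.11 for Fos, a 4.33-fold difference, and 2.65 for Egr2, a 6.26-fold difference. Egr1 allowed between 0.44-fold and 1.19-fold of the CRL level in IF1-TG, and Arc between 0.32-fold and 1.86-fold.

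**Figure D5:**
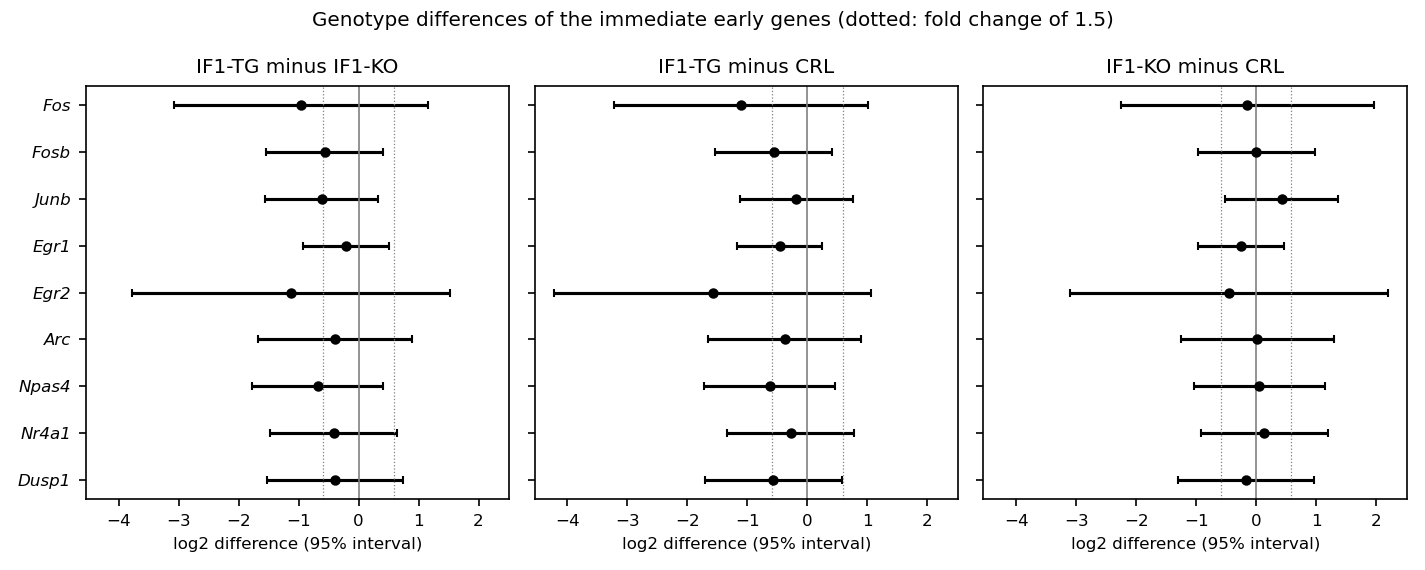
Log2 difference between genotypes (horizontal) for the 9 tested members (rows) in the 3 comparisons, with 95% intervals from limma; dotted lines mark a fold change of 1.5. All intervals include 0, and those of Fos and Egr2 are the widest.

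Genes outside the 10 that followed the same order of mice included others of the same class. The named gene closest to the mean of the members was Egr4, the fourth Egr factor, with r = 0.98 over the 9 arrays, followed by Btg2, an antiproliferative early gene (0.97), Dnajb1, an Hsp40 co-chaperone (0.96), Cyr61, a secreted matrix protein (0.96), and Ier2, an early response gene (0.95). The unnamed transcript ENSMUST00000097644 stood at 0.98. The median r of 21650 genes was 0.04, and 154 of them, or 0.711%, were above 0.8. With genotype means subtracted, Egr4 was again closest, and Sertad1, Igfbp6 and the transcripts ENSMUST00000143156 and ENSMUST00000114942 joined ENSMUST00000097644 among the 6 closest. Egr4 was at 1.43, 2.02 and 0.91 in IF1-KO, 1.33, 2.14 and 1.07 in CRL, and 0.66, 1.51 and 1.32 in IF1-TG. It shared with the 9 members the same highest mouse in each genotype.

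Of 31 other early regulators, transcription factors and signal inhibitors that are induced along with the members, 28 were tested. Their median r with the members was 0.60, and Egr4, Btg2, Ier2 and Sik1 (0.86), a kinase that restrains CREB coactivators, were above 0.8. The class was not uniform, with r from -0.36 to 0.98. Of the 28, 0 rose and 1 fell between IF1-TG and IF1-KO, and 0 passed the thresholds in the other 2 comparisons. The 1 call is 3.57% of the list, near the 3.71% of all genes. The gene that fell was Klf10, a Krüppel-like factor, by 0.84 on the log2 scale (SE 0.33, limma adjusted P = 0.682), with r = 0.20 to the members. The call was lost when IF1-KO replicate 2 or 3 (-0.72 and -0.77) or IF1-TG replicate 1 (-0.53) was left out. Median differences of the 28 were -0.14 in IF1-TG against IF1-KO, -0.19 in IF1-TG against CRL and -0.06 in IF1-KO against CRL.

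Later effectors of activity were read in the same way. The 18 tested effectors, among them secreted factors and synaptic proteins, had a median r of 0.37, from -0.41 to 0.84, over the 17 measured on each array, and 0 of 18 passed the thresholds in each of the 3 comparisons, beside 3.71%, 4.31% and 1.02% of all genes. Nptx2, a secreted pentraxin that clusters AMPA receptors, was the only one above 0.8, at 0.84. Bdnf, the neurotrophin, stood at -0.03 and Homer1, a scaffold of the postsynaptic density, at 0.26, and the probe of Homer1 does not separate its short early form.

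The factors that act upstream of immediate early genes did not share their order of mice. The 23 upstream factors had a median r of 0.02, from -0.66 to 0.60. Crtc2, a CREB coactivator, was higher in IF1-TG than in IF1-KO by 0.62 (SE 0.22, limma adjusted P = 0.668). This call rested on the IF1-KO array with undiminished Atpif1, where Crtc2 was at -0.55 against 0.20 and 0.08 on the other IF1-KO arrays. The difference was 0.39 and below the fold threshold when that array was left out, and the call was also lost without IF1-TG replicate 1 (0.56) or 2 (0.61). Map2k1, the kinase MEK1, was lower in IF1-TG than in CRL by a log2 difference of -0.71 (SE 0.23, limma adjusted P = 0.509), a call lost without CRL replicate 1 (-0.63) or IF1-TG replicate 2 (-0.62) or 3 (-0.55). Each is 1 of 23 genes, or 4.35%, beside the 3.71% and 4.31% of all genes. In IF1-KO against CRL, 0 of the 23 passed.

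Stress-related genes were read from 2 further lists. Among 8 tested heat shock genes the median r was 0.35 over the 7 measured on each array, with Dnajb1 alone above 0.8, and Hsp90aa1, a cytosolic chaperone, was higher in IF1-TG than in CRL by 0.68 (SE 0.25, limma adjusted P = 0.551). The call was lost without CRL replicate 1, where the difference was 0.42, and without CRL replicate 2 (0.69) or IF1-TG replicate 1 (0.59) or 3 (0.65). It was 1 of 8 genes (12.5%), beside 4.31% of all genes, and 0 of 8 passed in each of the other 2 comparisons. Hsp90aa1 itself had r = -0.43 with the members. Among 12 genes that respond to glucocorticoids the median r was 0.20 over the 11 measured on each array, Map3k6 (0.91) and Cdkn1a (0.85) were above 0.8, and 0 of 12 passed the thresholds in each of the 3 comparisons, beside 3.71%, 4.31% and 1.02% of all genes.

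Markers of cell types were compared with the members in the same way. Median r was 0.55 for CA1 markers, -0.30 for dentate markers, -0.21 for CA3 markers, 0.27 for neurons, -0.08 for astrocytes, -0.34 for the 7 microglial markers measured on each array, -0.40 for oligodendrocytes and 0.17 for endothelial and mural cells, of which Cdh5 stood at 0.87. Markers of tissue beside the hippocampus were at -0.16 for striatum, 0.26 for neocortex and -0.11 for thalamus. With genotype means subtracted, median r was 0.62 for CA1 markers, -0.48 for dentate, -0.26 for CA3, 0.52 for neurons and 0.16 for astrocytes. It was -0.10 for microglia, -0.62 for oligodendrocytes, 0.47 for endothelial and mural cells, -0.32 for striatum, 0.68 for neocortex and 0.17 for thalamus. The median of all genes on that scale was 0.07. Of these lists, the striatal marker Adora2a was lower in IF1-TG and in IF1-KO than in CRL, by log2 differences of -0.96 and -1.16 (limma adjusted P = 0.584 and 1.00), with CRL replicate 3 at -1.87 against -4.26 to -3.33 on the other 8 arrays. Without CRL replicate 3 the differences were -0.43, no longer a call, and -0.63. The call against IF1-TG was also lost without IF1-TG replicate 1 (-0.86) or 2 (-0.85) or any single IF1-KO array, and that against IF1-KO without IF1-KO replicate 3 (-1.08). The thalamic marker Lef1 was higher in IF1-TG than in CRL by 0.68 (limma adjusted P = 0.565), a call lost without CRL replicate 1 (0.55) or 3 (0.52) or IF1-TG replicate 1 (0.48) or 2 (0.67). Of 75 markers tested, 0 passed in IF1-TG against IF1-KO, 2 or 2.67% in IF1-TG against CRL and 1 or 1.33% in IF1-KO against CRL, beside 3.71%, 4.31% and 1.02% of all genes. The part of tissue makeup in the levels of the immediate early genes was not tested.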

How the data were processed

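The authors hybridised hippocampal RNA to Agilent 4x44K v2 arrays and deposited 1 scanner file per mouse from Feature Extraction 10.7.3.1. Its processed intensity, per the file headers, is background-subtracted and not normalized between arrays; the other deposited values used (marks and names of spots) have no unit. The submitters' processing notes name limma, and the normalization is not given in the sources used here. Probes are placed on mm9 as in the deposited annotation. Promoters and their starts came from RefSeq (GRCm38.p6).

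Log2 of the processed intensity was taken relative to the 75th percentile of each array. Control spots and spots marked as outliers were dropped, and the spots of 1 probe were averaged. A probe was kept when some genotype had it well above background on each of its 3 arrays (27993 of 39429 probes), and a gene was read by its brightest kept probe. Atpif1 alone was read by its first probe in order of probe name, without a choice by brightness. Replicate arrays correlated at 0.983 to 0.992. The arrays carry no read depth, and their number limits the precision. All 9 arrays entered limma 3.58.1 (R 4.3.3) with genotype as factor and eBayes, without a block. The script was tested on simulated data.

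The members and gene lists were chosen with earlier results of these data known. Named are all members, list genes past the thresholds, and the 6 genes most correlated with the members' mean, over 9 arrays and over deviations from genotype means; genes above r = 0.8 in a list and Bdnf and Homer1 were named after their values were seen. Alternatives were quantile normalization, normexp (offset 50) with quantile, no filter or all 9 arrays above background, slide as a fixed or random block, values within slides, a replicate block, only the 2 genotypes compared, a trend and robust eBayes, the mean of a gene's probes, and leaving out each array. Nothing says that mice were littermates or shared a day.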

Additional observations from a re-analysis of the deposited data

How the results depend on the processing

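The count of 0 members past the thresholds held under every alternative run in the 3 comparisons but 1. With the replicate number as a block, 1 member passed in IF1-TG against IF1-KO, Npas4, at -0.68 with an unadjusted P of 0.0472 and a limma adjusted P of 0.731. In IF1-TG against CRL the same block gave Egr1 an unadjusted limma P of 0.0330 (adjusted P = 0.634). Its difference of -0.46 was short of the fold threshold. The numbers were not taken to pair the mice, since deviations of same-numbered arrays correlated from -0.17 to 0.12 over all probes. Over the 9 members alone they correlated at 0.80 to 0.91 between IF1-KO and CRL, at 0.70 and 0.89 for replicate 2 of IF1-TG with IF1-KO and CRL, and at -0.86 to -0.62 for its other replicates. With the block, 1068 probes instead of 1063 passed in IF1-TG against IF1-KO, 1187 instead of 1252 in IF1-TG against CRL and 329 instead of 299 in IF1-KO against CRL. The median difference of the members stayed negative in both IF1-TG comparisons under all alternatives run, from -0.86 to -0.43 against IF1-KO and from -0.76 to -0.49 against CRL, and with single arrays left out from -0.88 to -0.19 and from -0.79 to -0.20.

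In IF1-KO against CRL the sign of the median and of single genes depended on the arrays. The median was 0.88 within slide 3 (2 IF1-KO arrays and 1 CRL array, an alternative added after the data were seen) and -0.29 within slide 2, where the one IF1-KO array is that with undiminished Atpif1, so that slide 2 gives no value without it. The 9 members ran from 0.23 for Egr1 to 1.15 for Egr2 within slide 3, and from -0.96 for Egr2 to -0.0092 for Junb within slide 2, so that 9 of 9 were higher in IF1-KO on slide 3 and 9 of 9 lower on slide 2. Fosb was at -0.0050 under quantile normalization and -0.089 after normexp with quantile normalization, and with slide as a fixed block Fos was at 0.27, Egr2 at 0.097 and Dusp1 at 0.081. With single arrays left out, the range of the difference included 0 in this comparison at -0.86 to 0.60 for Fos, -0.37 to 0.34 for Fosb, -1.36 to 0.45 for Egr2, -0.48 to 0.44 for Arc, -0.43 to 0.48 for Npas4, -0.26 to 0.51 for Nr4a1 and -0.55 to 0.23 for Dusp1. The same held in IF1-TG against IF1-KO at -0.43 to 0.048 for Egr1 and -0.77 to 0.023 for Arc, and in IF1-TG against CRL at -0.46 to 0.20 for Junb, -0.87 to 0.047 for Arc and -0.68 to 0.10 for Nr4a1. The other members kept the sign of their difference with each array left out, though Egr1 and Junb did not within slides in IF1-KO against CRL, and Egr3, with no kept probe, gives no difference here. The calls of list genes lost without single arrays, an alternative added after the data were seen, stand beside those genes. Values within a slide had no test.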
